A study of Mus musculus with 2 samples.

Results

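Serum/LIF ESCs that carried a Cnot8 KO tag were compared with ESCs that carried a wild-type (WT) tag in the same single-cell RNA library. A cell was kept when it had at least 1000 detected genes and at most 10% of its unique molecular identifiers (UMIs, each marking 1 captured RNA molecule) on mitochondrially encoded genes, which left 11054 of 13184 cell barcodes. A kept cell was WT-tagged when it had at least 1 UMI of the tdTomato reporter and 0 UMIs over the Y-linked genes Ddx3y, Eif2s3y, Kdm5d and Uty. It was KO-tagged when it had 0 tdTomato UMIs and at least 2 UMIs over these 4 genes. By this rule 435 cells (3.94% of those kept) were WT-tagged and 2978 (26.9%) were KO-tagged, together 3413 of the 25611 barcodes in both libraries of the series.

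The WT line carried the ROSA mT/mG reporter, a membrane-targeted tdTomato expressed from the Rosa26 locus. The Cnot8 KO line descended from ICR mice with a small CRISPR/Cas9 deletion in exon 2 of Cnot8, and ESC lines were derived from blastocysts. WT and KO ESCs had been grown in serum with leukaemia inhibitory factor (LIF), mixed in equal numbers and captured in 1 droplet library, and cells taken 48 h into epiblast-like differentiation (48h-EpiLCs) were mixed and captured in another. The labels of both libraries give the genotype as wild type and do not assign cells to lines, so that WT and KO here always refer to the tags. The lines differed in the reporter, in Y-linked RNA and in derivation as well as at Cnot8, and with 1 line of each kind these differences cannot be told apart from the genotype.

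Cnot8 is a deadenylase of Ccr4-Not, a large cytoplasmic complex that trims mRNA poly(A) tails and thereby starts the decay of its targets. Cnot7 is its close paralogue, and Cnot6 and Cnot6l are the other type of deadenylase in the complex. Mouse ESCs in serum/LIF express naïve pluripotency factors. The study that reported these data proposes that leaving the naïve state involves Cnot8-dependent clearance of the mRNAs of these factors.

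The site in exon 2 that the guide RNA addressed is shown because it defines the KO allele and because it lies far from the part of the transcript that the assay reads. Capitals mark the PAM.
Cnot8 exon 2 site: ctgttttctacaagtgccgcAGG
This site is at chr11:58109653-58109675 (GRCm38, minus strand), within the coding part of exon 2 of the protein-coding transcripts Cnot8-201, Cnot8-202 and Cnot8-204. The 3′ assay counts RNA from the far end of the transcript, so that a small exon 2 deletion is not read and the Cnot8 count does not check the allele.

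Cnot8 itself (ENSMUSG00000020515, chr11:58104153-58118594) had 265 UMIs in WT-tagged cells and 3180 in KO-tagged cells. This was 43.1 CPM (UMIs of a gene scaled to a class total of 1000000; 95% exact Poisson interval 38.0 to 48.6) against 72.1 CPM (69.6 to 74.6). Cnot8 RNA was therefore higher, not lower, in the KO-tagged cells. The log2 ratio, taken here and below as KO-tagged over WT-tagged and relative to the median of all genes compared, was 0.62 (95% interval 0.44 to 0.81). It was 0.26 in 48h-EpiLCs, at 49.7 and 62.6 CPM, and 0.31 in ESCs with a WT tag that did not use tdTomato (below). At least 1 Cnot8 UMI was found in 45.1% of WT-tagged and 63.0% of KO-tagged cells, and in 45.8% of 212 cells with fibroblast feeder markers (median 14707.5 UMIs). After each cell had been thinned to 5000 UMIs these shares were 18.2, 30.2 and 18.8%. Of the 212 feeder-marked cells 71 were also KO-tagged and 3 WT-tagged, so that the feeder-marked shares here and below are not independent of the classes.

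Each class is a sum over cells of 1 line in 1 library. There was no replicate and no test, and all intervals cover counting error only and say nothing of how far 2 lines of one genotype would differ. In such sums, fewer cells with a transcript and less RNA per cell cannot be told apart. The WT-tagged sum held 6154790 UMIs and the KO-tagged sum 44110356, at a median of 13151 and 13368 UMIs per cell. The median number of detected genes was 3642 and 3878.5, and mitochondrially encoded genes took a median of 3.87 and 3.82% of UMIs. Ribosomal protein genes took a median of 22.4 and 20.3%. At 3 UMIs the floor was 0.487 CPM for the WT-tagged and 0.0680 CPM for the KO-tagged sum, so that the smaller WT-tagged class limited the precision of every ratio.

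The tags were sparse. Of the kept cells, 5321 had 0 UMIs of tdTomato and of the Y-linked genes, and 402 of the 435 WT-tagged cells had exactly 1 tdTomato UMI. Just inside the KO tag lay 1479 cells with 2 Y-linked UMIs, and just outside it 2238 cells with 1. Another 82 cells had both kinds of tag, of which 35 had 2 or more Y-linked UMIs and 21 of those 35 were among the 10% of cells with the highest doublet scores. Near the cell filters, 1 tagged cell lay within 100 genes above the minimum of 1000 and 0 cells that met a tag lay within 100 genes below it, and 8 had 9 to 10% mitochondrial UMIs against 5 that would have met a tag at 10 to 11%. As chosen by the rule, tdTomato stood at 76.0 CPM in WT-tagged cells, and Ddx3y at 89.8, Eif2s3y at 75.9, Uty at 28.1 and Kdm5d at 2.06 CPM in KO-tagged cells. Of the barcodes in the ESC library, 41 (0.311%) also occurred in the 48h-EpiLC library, 3 of them among tagged cells.

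The tagged cells had the defining transcripts of ESCs, whose 8 markers summed to 5528 CPM in WT-tagged and 5009 CPM in KO-tagged cells. Cells with feeder or primitive endoderm markers were more frequent among the KO-tagged cells. At least 3 of 10 feeder fibroblast markers were detected in 3 WT-tagged cells (0.690%, exact binomial interval 0.142 to 2.00%) and 71 KO-tagged cells (2.38%, 1.87 to 3.00%). For primitive endoderm, the extraembryonic lineage that arises beside the epiblast, the counts were 6 (1.38%) and 92 (3.09%). The 10 feeder markers together reached 12.0 CPM in WT-tagged and 42.9 CPM in KO-tagged cells, with Col6a1 and Lum at 0 in the former, and 8.23 and 13.2 CPM once cells of other types had been left out. The primitive endoderm markers, all of them detected in each class, summed to 28.3 and 53.3 CPM, and to 10.9 and 20.6 CPM without those cells. At least 3 markers of 2-cell-like cells were detected in 2 WT-tagged (0.460%) and 14 KO-tagged cells (0.470%). Markers of 2-cell-like cells summed to 11.4 and 6.39 CPM, with Zscan4f, Tcstv1 and Zfp352 at 0 in WT-tagged cells. Those of mesendoderm summed to 5.85 and 7.93 CPM, with T, Mixl1, Mesp1 and Cer1 at 0 in WT-tagged cells, and those of trophoblast to 49.6 and 75.1 CPM. Ratios that rest on these cells are given below with and without them.

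Across the genome most transcripts stood at similar levels in both classes. A gene was compared when the mean of its CPM in the 2 classes was at least 10, which 7580 genes met, apart from the 5 tag genes. The median log2 CPM ratio of these genes was 0.12 and was subtracted from every ratio. After that, 84.8% of genes lay within 1.5-fold, 597 (7.88%) were at least 1.5-fold higher in KO-tagged cells and 556 (7.34%) at least 1.5-fold lower. These shares are the background for every gene group below. A total of 163 genes were at least 2-fold higher and 144 at least 2-fold lower. Without the subtraction 878 genes were higher and 370 lower, so that the balance of the directions rests on the scaling.

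The counts differed when the WT tag and the depth of both classes were changed together, and the part of each was not tested. When cells of at least 20000 UMIs with 0 Y-linked UMIs were taken as WT whether or not they had tdTomato (286 cells, 239 of them without tdTomato, against 490 KO-tagged cells of that depth), 188 genes were higher and 204 lower. Of 127 genes past 1.5-fold that belong to the named genes and lists below, 53 stayed past it in the same direction under this tag and 125 had a ratio nearer 0. The 53 include by construction the 12 higher and 12 lower named genes, which were chosen to stay past 2-fold under this tag. Of the 286 cells 73 had a chromosome 16 share on the KO-tagged side of the midpoint described below, whose part in the smaller ratios was not tested. Values with this tag are given beside the counts of the gene lists below. The exception is the study's own list of Cnot8-dependent genes, for which none was calculated.

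**Figure D1:**
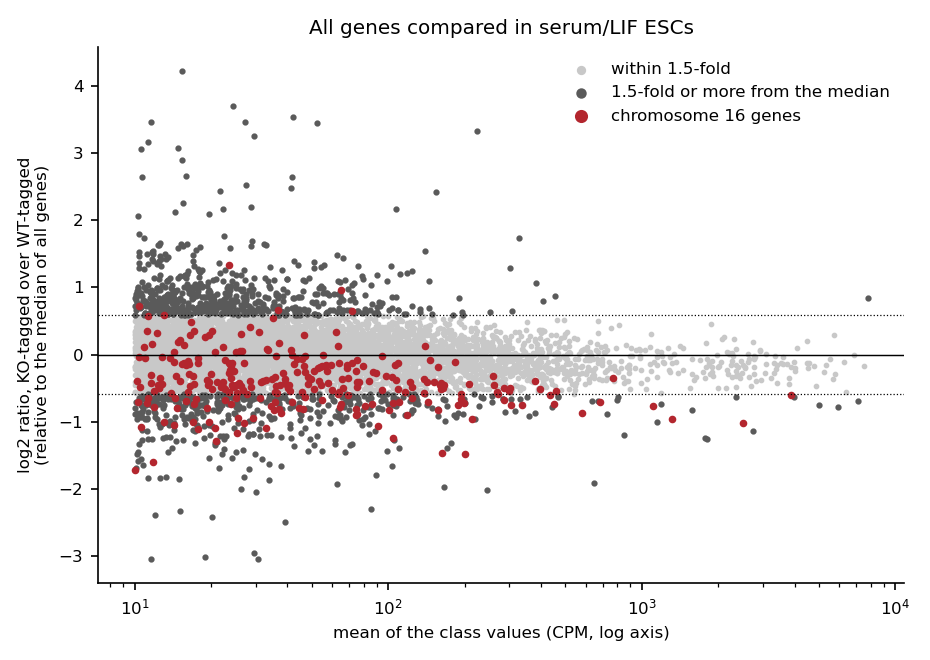
Log2 ratio of KO-tagged over WT-tagged serum/LIF ESCs (y axis, relative to the median of all genes) against mean CPM of both classes (x axis, log scale), each point 1 of the 7580 genes compared, with genes past 1.5-fold (dotted lines) dark and genes of chromosome 16 red. Of these genes 597 lie at or above 1.5-fold and 556 at or below 1.5-fold in the other direction, with the remaining 84.8% between.

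Genes are named below when their level reached 20 CPM in the higher class and their ratio stayed past 2-fold without cells of other types, after thinning, and with a WT tag that did not use tdTomato. Of 20 higher and 21 lower genes that met these conditions, the 12 with the largest ratios in each direction are described.

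Several transcripts that were low in WT-tagged cells reached a moderate level in KO-tagged cells. Ipp (chromosome 4), which was named for its transcription from an intracisternal A-particle promoter in placenta, stood at 8.12 CPM in WT-tagged and 96.5 CPM in KO-tagged cells, a log2 ratio of 3.45 (3.05 to 3.88). Nr1h5, which encodes a nuclear receptor of the farnesoid X receptor type, had 4.22 and 50.3 CPM (3.46, 2.90 to 4.07). At least 1 UMI of Ipp was found in 9.89% of WT-tagged and 60.6% of KO-tagged cells, and of Nr1h5 in 5.52 and 49.5%. In feeder-marked cells these shares were 26.4% for Ipp and 15.6% for Nr1h5, above the WT-tagged and below the KO-tagged shares. Apoc2, an apolipoprotein that activates lipoprotein lipase, had 11.7 and 70.9 CPM (2.48). Stra8, which germ cells need for entry into meiosis, had 9.59 and 47.9 CPM (2.20). Prph, the neuronal intermediate filament peripherin, had 6.34 and 37.3 CPM (2.44), and Wdr95 had 2.11 and 20.5 CPM (3.16). Fam25c had 36.4 and 178 CPM (2.17) and was detected in 35.2 and 85.1% of cells.

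In 48h-EpiLCs Ipp, Nr1h5, Apoc2, Prph and Fam25c were high enough to be compared and had ratios past 2-fold as well, from 1.54 for Prph to 3.39 for Apoc2. Wdr95 (0.643 and 6.95 CPM) and Stra8 (2.09 and 13.004 CPM) were too low to be compared there. Ly6a, the surface antigen Sca-1, stood at 2.92 and 26.7 CPM (3.07) in ESCs, but its share of positive cells was 37.3% among feeder-marked cells against 23.6% of KO-tagged cells, and 20.8% of the 31-base words in its 3′ end also occur in other genes, mainly Ly6c1. BC004004 had 45.2 and 263 CPM (2.42). It was detected in 43.5% of WT-tagged, 94.9% of KO-tagged and 92.9% of feeder-marked cells. The share in feeder-marked cells was thus close to the KO-tagged share for BC004004, whereas for Fam25c it was 35.9%, close to the WT-tagged share. Of the 212 feeder-marked cells 71 belong to the KO-tagged class as well.

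A further 3 genes at the top of the list cannot be assigned with certainty. Gm11361 (6.17 and 77.8 CPM, 3.54) and Gm10260 (37.9 and 412 CPM, 3.32) share 90.9 and 71.5% of the 31-base words of their 3′ ends with other genes, among them Rps18, a protein of the small ribosomal subunit. Rps18 itself had 2477 and 1130 CPM (-1.25). Summed over the 3 genes, the level was 2521 CPM in WT-tagged and 1620 CPM in KO-tagged cells, a ratio of -0.76. BC023719 (3.25 and 45.7 CPM, 3.70) shares 46.2% of these words with A930015D03Rik and overlaps an annotated gene on the opposite strand. Strandedness was not stated in the sources used here, and which gene the reads of the overlap came from was not examined. Gm10260 and Wdr95 also overlap an annotated gene on the opposite strand. Of all genes compared, 236 (3.11%) had a near copy by this measure, 32 of them among the higher and 33 among the lower genes.

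In the other direction, some transcripts of WT-tagged cells were low in KO-tagged cells. Myo1f, a class I myosin, had 54.1 CPM in WT-tagged and 7.14 CPM in KO-tagged cells (-3.04, -3.27 to -2.81). Gc, the vitamin D-binding protein, had 51.8 and 7.30 CPM (-2.95), and Apoa2, an apolipoprotein of high-density lipoprotein, 33.5 and 4.49 CPM (-3.02). AA465934 had 20.5 and 2.70 CPM (-3.04). At least 1 Apoa2 UMI was found in 34.3% of WT-tagged, 5.64% of KO-tagged and 11.8% of feeder-marked cells, and for Myo1f, Gc and AA465934 too the KO-tagged share was the lowest of the 3. Dera, which encodes deoxyribose-phosphate aldolase, had 33.6 and 6.87 CPM (-2.41), and Slc25a13, a mitochondrial aspartate-glutamate carrier, 65.6 and 12.7 CPM (-2.49). Gm26564 had 24.9 and 5.37 CPM (-2.33), and Spink1, a trypsin inhibitor, 47.9 and 12.6 CPM (-2.05).

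Among the more abundant transcripts of this group, Tcf15, a bHLH factor linked to priming of pluripotent cells for differentiation, had 140 CPM in WT-tagged and 30.9 CPM in KO-tagged cells (-2.30, -2.43 to -2.18). Peg3, a paternally expressed imprinted zinc-finger gene, had 387 and 104 CPM (-2.01), and Cenpm, a centromere protein gene, 260 and 71.7 CPM (-1.98). Xlr3c (41.3 and 11.2 CPM, -2.00) is an X-linked gene with near copies, mainly Xlr3b, and the summed ratio of the family was -1.25. In 48h-EpiLCs the ratio was -1.86 for Tcf15 and -1.31 for Peg3 but -0.24 for Cenpm. Myo1f was too low to be compared there, at 1.29 and 4.54 CPM.

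**Figure D2:**
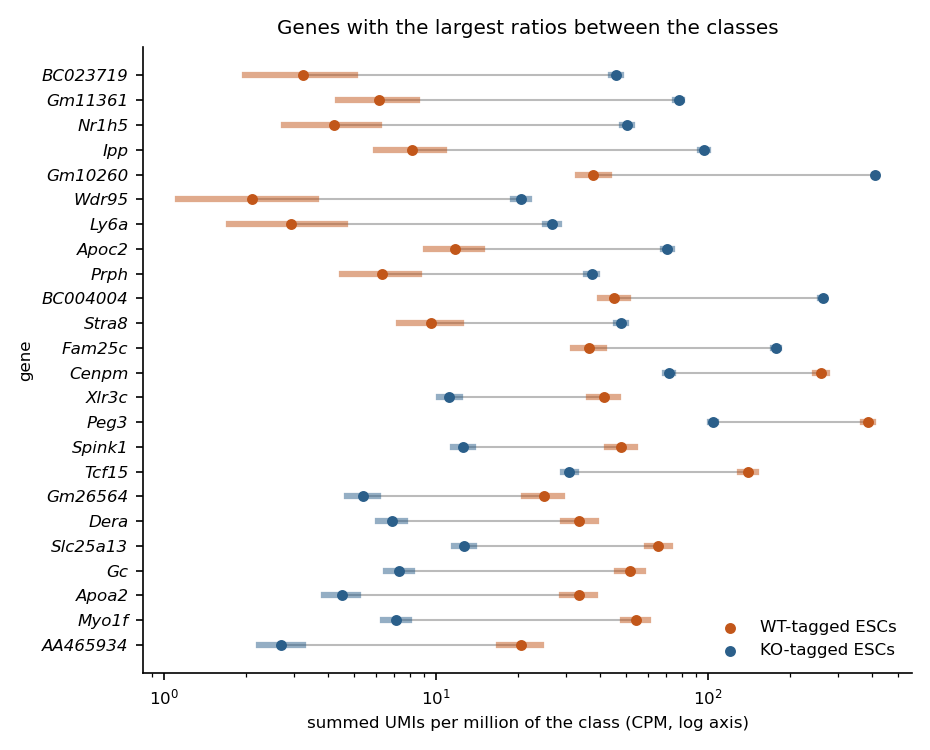
Levels of the 12 higher and 12 lower named genes (y axis) in WT-tagged and KO-tagged serum/LIF ESCs (x axis, CPM on a log scale; points are levels and bands 95% exact Poisson intervals that cover counting error only). The genes were chosen for large ratios, so that the levels of the classes lie apart by construction. Ipp lies at 8.12 and 96.5 CPM and Myo1f at 54.1 and 7.14 CPM.

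Of all chromosomes, chromosome 16 had the lowest median ratio. Of 271 genes compared on this chromosome 233 had a ratio below 0, and their median was -0.43 (order-statistic interval -0.46 to -0.39). For every other autosome the median lay between -0.07 and 0.07. On chromosome 16, 77 genes (28.4%) were at least 1.5-fold lower and 6 (2.21%) higher, against 7.34 and 7.88% of all genes. Of the 556 lower genes 13.8% were on chromosome 16, which held 3.58% of the genes compared. Chromosome X had a median of -0.13 over 237 genes, with 13 higher and 41 lower, and 12 of the 41 lay in its first 10 Mb. DNA copy number was not measured here.

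The lower ratio extended along the whole of chromosome 16. In 10-Mb windows with at least 10 genes, 8 of 8 on chromosome 16 had a median of -0.3 or less, from -0.67 to -0.36, against 1 of 201 on the other autosomes and 1 of 10 on chromosome X. The latter was the window of the first 10 Mb, where 22 of 23 genes lay below 0 and the median was -0.62. In 48h-EpiLCs the median of chromosome 16 was -0.38 over 276 genes, and 7 of 7 such windows were at -0.3 or less against 0 of 206 on the other autosomes and 1 of 10 on chromosome X, again its first 10 Mb (median -0.55, 23 of 23 genes below 0). The genes concerned include the pluripotency-associated Dppa2 (276 and 240 CPM, -0.32) and Dppa4 (231 and 186 CPM, -0.43). They also include Btg3, whose protein binds the Ccr4-Not deadenylases (94.6 and 55.8 CPM, -0.88), the chaperonin subunit Cct8 (824 and 546 CPM, -0.71), the replicative helicase subunit Mcm4 (241 and 158 CPM, -0.73) and the ATP synthase subunit Atp5j (730 and 432 CPM, -0.88).

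**Figure D3:**
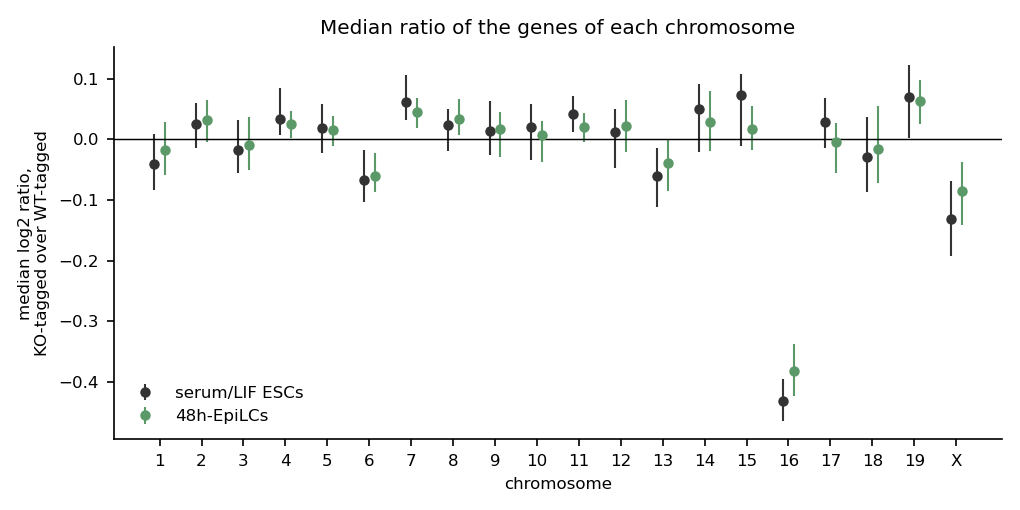
Median log2 ratio of KO-tagged over WT-tagged cells for the genes compared on each chromosome, in serum/LIF ESCs and in 48h-EpiLCs (y axis, relative to the median of all genes, with order-statistic intervals over genes). Chromosome 16 lies at -0.43 in ESCs and -0.38 in 48h-EpiLCs, and the other autosomes lie between -0.07 and 0.07 in ESCs.

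The same difference was visible in single cells. Genes of chromosome 16 took a median of 3.69% of the autosomal UMIs of a WT-tagged cell (5th to 95th percentile 3.03 to 4.06%) and 2.58% of those of a KO-tagged cell (2.29 to 3.09%). The midpoint of these medians was 3.14%, and 94.7% of WT-tagged cells lay at or above it while 95.7% of KO-tagged cells lay below. The 5321 cells without any tag UMI formed 2 groups on this scale, with 64.0% at or above the midpoint, and of the cells with 0 tdTomato UMIs and 1 Y-linked UMI 87.0% lay below it. Feeder-marked cells had a median of 2.49%, which is close to that of KO-tagged cells. The 2 groups overlap, since 71 of the 212 feeder-marked cells were KO-tagged and 3 were WT-tagged.

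**Figure D4:**
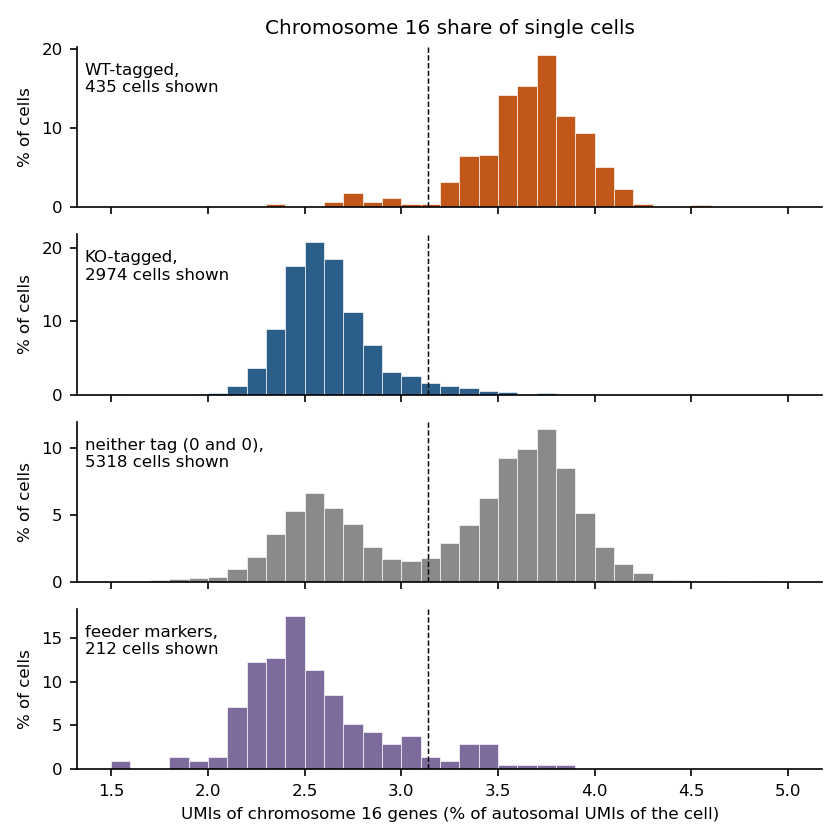
Share of autosomal UMIs on chromosome 16 genes per cell (x axis, %) against the percentage of cells (y axis) for WT-tagged cells, KO-tagged cells, cells with neither tag and feeder-marked cells of the ESC library, with the midpoint of 3.14% dashed. WT-tagged cells centre at 3.69% and KO-tagged cells at 2.58%, and cells with neither tag fall into a group at each position.

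Among the naïve pluripotency factors, Zfp42 was higher and Nanog and Klf4 were lower in KO-tagged cells, while the other 9 of 12 genes compared lay within 1.5-fold. Zfp42, which encodes the ESC marker Rex1, stood at 304 CPM in WT-tagged and 603 CPM in KO-tagged cells (0.87, 0.80 to 0.94). Nanog had 84.5 and 56.1 CPM (-0.71, -0.85 to -0.57) and Klf4, a target of LIF signalling, 155 and 92.0 CPM (-0.87). Of the nuclear receptors, Esrrb had 48.7 and 56.6 CPM (0.10) and Nr5a2 15.1 and 22.4 CPM (0.45), and Nr0b1, the X-linked Dax1, had 122 and 92.6 CPM (-0.51). Klf2 (0.09), Klf5 (0.10), Tbx3 (0.09), Tcl1 (0.12) and Tfcp2l1 (0.19) lay near the median of all genes, and Dppa3 at -0.45. The median of the list was 0.09. With the WT tag that did not use tdTomato Zfp42 was at 0.50 and Klf4 at -0.51, short of 1.5-fold, and Nanog at -0.68. In 48h-EpiLCs 6 members could be compared, of which 3 were past 1.5-fold higher and 1 lower. Prdm14 was too low to be compared, at 1.14 and 2.04 CPM.

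The general pluripotency genes lay slightly lower in KO-tagged cells, with a median of -0.38 over 10 genes and 8 of them below 0. Fgf4, the growth factor that drives ESCs towards differentiation, was the 1 member past 1.5-fold, at 143 and 65.3 CPM (-1.25, -1.36 to -1.14). Pou5f1, encoding Oct4, had 99.8 and 75.5 CPM (-0.52) and Sox2 269 and 237 CPM (-0.30, a gene within a longer transcript on its own strand). Of 9 genes of formative pluripotency compared, Tcf15 (above), Lef1 (67.9 and 39.1 CPM, -0.92) and Otx2 (19.17 and 12.4 CPM, -0.75) were lower and none was higher. Lef1 is a transcription factor of the Wnt pathway, and Otx2 is a homeobox factor of the early epiblast. With the WT tag that did not use tdTomato the ratio of Otx2 was 0.15, that of Lef1 -0.41, that of Tcf15 -1.46 and that of Fgf4 -0.86. Dnmt3a (131 and 167 CPM, 0.23), Dnmt3b (220 and 258 CPM, 0.12) and Pou3f1 (68.1 and 78.7 CPM, 0.09) lay near the median. Fgf5 (2.76 and 1.29 CPM), Sox3 (8.77 and 4.26 CPM) and Sall2 (4.55 and 1.72 CPM) were too low to be compared.

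Among 16 genes of the Ccr4-Not complex and the BTG/Tob proteins that bind it, Cnot8 and Cnot11 (32.7 and 56.3 CPM, 0.67) were higher and Btg3 was lower. The paralogous deadenylase Cnot7 had 38.3 and 44.6 CPM (0.10), the scaffold Cnot1 129 and 136 CPM (-0.05), Cnot6 42.6 and 45.6 CPM (-0.02) and Cnot6l 13.7 and 13.6 CPM (-0.13). Among 27 other mRNA decay genes compared, the helicase Ddx6 (159 and 104 CPM, -0.73), the exosome subunit Exosc9 (42.7 and 29.3 CPM, -0.66) and Zfp36l1, which recruits the complex to AU-rich mRNAs (62.2 and 31.7 CPM, -1.09), were lower. The exosome subunit Exosc4 was higher (137 and 225 CPM, 0.59). With the WT tag that did not use tdTomato 0 of these 27 genes were past 1.5-fold, and of the 16 genes above 1 was lower and 0 higher.

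The list that the study drew up of genes degraded in a Cnot8-dependent way came from bulk RNA-seq of other cultures. These were ESCs grown with LIF and inhibitors of MEK and GSK3, not in serum, and cells differentiating from them. Its members fell during normal differentiation and were higher in Cnot8 KO cells at some time sampled. They were thus chosen for their RNA levels in Cnot8 KO cells, so that the direction of the list here is not independent evidence. Of the 1236 genes of this list 1178 were found and 627 could be compared. In KO-tagged ESCs 165 of them (26.3%) were at least 1.5-fold higher and 45 (7.18%) lower, against 7.88 and 7.34% of all genes, and the median was 0.26, with 431 genes above 0. In 48h-EpiLCs 126 of 499 compared were higher and 18 lower, with a median of 0.31.

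Genes of sugar metabolism were lower in KO-tagged cells. Of 17 glycolytic genes compared 9 were at least 1.5-fold lower and 1 was higher, with a median of -0.63. Pgk1, phosphoglycerate kinase, had 920 and 539 CPM (-0.89), Ldha, which makes lactate, 1442 and 937 CPM (-0.74), and the glucose transporter Slc2a3 235 and 140 CPM (-0.87). Hk1, a hexokinase, was the exception at 6.17 and 17.6 CPM (1.39). Hypoxia-responsive genes had a median of -0.60, with 6 of 12 lower and 0 higher. Ddit4, an inhibitor of mTORC1, had 44.5 and 24.8 CPM (-0.97), the mitophagy receptor Bnip3 83.3 and 46.6 CPM (-0.96), the prolyl hydroxylase Egln3 39.6 and 26.3 CPM (-0.71) and Ankrd37 30.4 and 19.9 CPM (-0.73). With a WT tag of at least 2 tdTomato UMIs, met by 33 cells, the ratio of Ddit4 was 0.14 and that of Ankrd37 0.96. Both lists had medians of the same sign in 48h-EpiLCs, -0.66 for glycolysis (18 genes compared) and -0.94 for hypoxia (13 genes). With the WT tag that did not use tdTomato the ESC medians were -0.37 and -0.34, and 1 gene of each list was past 1.5-fold, in both cases lower. Of 75 nuclear genes of oxidative phosphorylation 68 lay below 0 and 6 were past 1.5-fold, with a median of -0.28. With the WT tag that did not use tdTomato 0 of these 75 were past 1.5-fold, and their median was -0.23.

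In further groups a smaller share of the members was past 1.5-fold than for glycolysis or hypoxia, and most of these were lower except among fatty acid genes. Ribosomal protein genes had a median of -0.19, with 9 of 84 lower and 0 higher, led by Rpl29 (1006 and 292 CPM, -1.91), for which Gm3550 is a near copy. Of 19 immediate early genes 5 were lower and 0 higher. Gadd45g, a growth arrest and DNA damage gene, had 52.5 and 15.6 CPM (-1.87), Zfp36l1 is given above, and Ier2 had 147 and 85.6 CPM (-0.90). Sterol synthesis had 5 of 21 lower, among them Ebp (70.8 and 45.5 CPM, -0.76) and Cyp51 (92.1 and 60.7 CPM, -0.72). Of fatty acid genes 5 of 13 were higher and 0 lower, among them the desaturases Scd1 (22.8 and 44.1 CPM, 0.84), Fads1 (11.2 and 22.9 CPM, 0.91) and Fads2 (16.9 and 31.6 CPM, 0.79) and their regulator Srebf1 (9.26 and 18.5 CPM, 0.88). Of 16 genes of the amino acid response 3 were lower and 1 higher. The lower ones were Asns, asparagine synthetase (121 and 79.2 CPM, -0.73), Phgdh, the first enzyme of serine synthesis (132 and 83.7 CPM, -0.77), and the arginine transporter Slc7a3 (113 and 54.4 CPM, -1.18), and the higher one was Cebpb, a bZIP transcription factor (6.50 and 17.98 CPM, 1.35). Of imprinted genes, 4 of 18 were lower and 1 higher, with Peg3, its neighbour Usp29 (17.4 and 5.28 CPM, -1.84) and the retrotransposon-derived Peg10 (247 and 108 CPM, -1.31) in the first group. With the WT tag that did not use tdTomato the lower genes numbered 6 of 84 for ribosomal proteins, 3 of 19 for immediate early genes, 1 of 22 for sterol synthesis, 1 of 15 for the amino acid response and 2 of 18 for imprinted genes, and 0 fatty acid genes were past 1.5-fold.

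In signalling pathways members passed 1.5-fold in both directions. Of 11 genes of the Wnt pathway 2 were higher and 3 lower. Axin2, a feedback inhibitor, was higher (5.04 and 23.8 CPM, 2.12), as was Axin1 (25.02 and 42.5 CPM, 0.64), while Lef1, the repressor Tcf7l1 (59.1 and 36.8 CPM, -0.80) and the kinase gene Gsk3b on chromosome 16 (81.2 and 57.8 CPM, -0.61, named to complete the count) were lower. In 48h-EpiLCs the ratio of Axin2 was 0.35. Of 10 genes of the Nodal pathway, the antagonist Lefty2 (21.1 and 55.1 CPM, 1.26) and Smad2 (32.0 and 54.1 CPM, 0.64) were higher. Of 16 genes of FGF/ERK signalling, the phosphatase Dusp4 (15.1 and 37.4 CPM, 1.19) and Spred2 (24.5 and 49.3 CPM, 0.89), both negative regulators, were higher and Fgf4 was lower. Of 11 genes of LIF/STAT3 signalling 0 were past 1.5-fold. Of 16 polycomb genes Epop (283 and 532 CPM, 0.79), Suz12 (145 and 245 CPM, 0.63) and Ezh1 (9.75 and 18.5 CPM, 0.80) were higher and Pcgf5 was lower (14.5 and 9.84 CPM, -0.67). Of 23 G2/M genes 0 and of 23 S phase genes 3 were past 1.5-fold, the latter all lower. With the WT tag that did not use tdTomato 1 Wnt gene was higher and 0 lower, 1 Nodal gene was higher and 1 lower, 1 FGF/ERK gene was higher and 2 lower, and 0 polycomb genes were past 1.5-fold. With that tag 0 genes of S phase, G2/M or LIF/STAT3 signalling were past 1.5-fold.

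Germline genes were represented on both sides, with 4 of 11 higher and 2 lower. Dmrt1, a transcription factor of the gonad (6.99 and 23.6 CPM, 1.64), Sycp1, of the synaptonemal complex (15.1 and 50.8 CPM, 1.63), and Mov10l1, of the piRNA pathway (5.69 and 19.11 CPM, 1.63), were higher together with Stra8, which is described above. Of the MHC class I genes and their partners 4 of 5 were higher, with H2-D1 at 11.4 and 31.7 CPM (1.36), H2-K1 at 12.7 and 26.7 CPM (0.96) and Tapbp at 8.61 and 16.01 CPM (0.78). B2m, the light chain, had 8.77 and 15.6 CPM (0.71) and is detected in 90.1% of feeder-marked cells, and its ratio was 0.20 without cells of other types. H2-D1 was detected in 80.2% of feeder-marked, 33.6% of KO-tagged and 12.0% of WT-tagged cells, and its ratio was 1.37 without cells of other types. Contractile genes had 7 of 17 higher and 0 lower, with a median of 0.44 that was 0.16 without cells of other types. Smooth muscle actin Acta2 stood at 5.20 and 53.9 CPM (3.26), Tagln at 10.7 and 72.9 CPM (2.65) and Thbs1 at 6.34 and 18.9 CPM (1.46), and without those cells the ratios were 1.57, 1.13 and 0.017. With a WT tag that did not use tdTomato the ratios of Acta2, Tagln and Thbs1 were -0.47, -0.68 and -0.78, and that of B2m was -0.13. With that tag H2-D1 was at 0.54, H2-K1 at 0.31 and Tapbp at 0.22, so that 0 of 5 MHC genes were past 1.5-fold, whereas 5 of 10 germline genes were higher and 1 lower. The WT class of that tag held 28 cells of other types among 286, and the KO-tagged cells of that depth 58 among 490. In the main classes these were 11 among 435 and 174 among 2978. Their part in the changed ratios was not tested. Acta2 was detected in 75.5% of feeder-marked cells and 12.4% of KO-tagged cells.

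**Figure D5:**
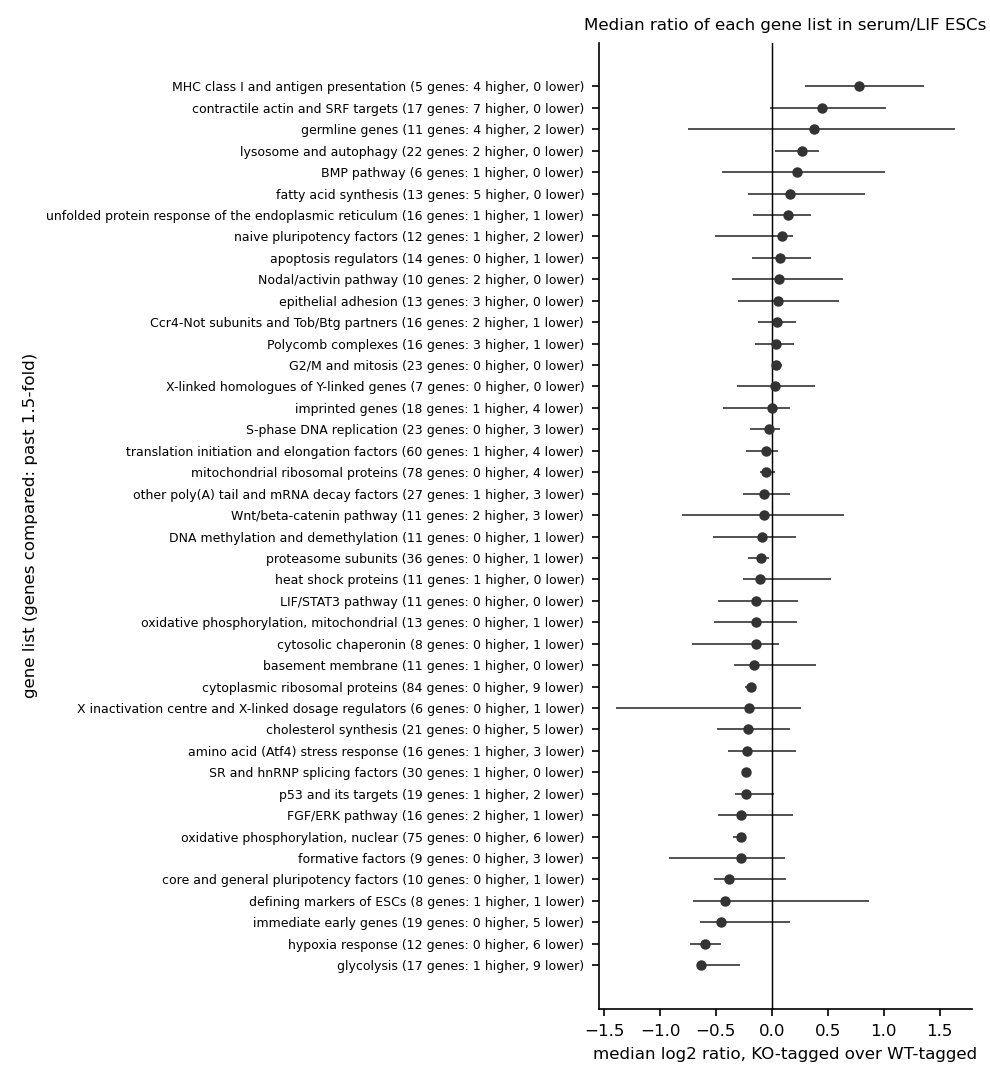
Median log2 ratio of the genes compared in each gene list (x axis, KO-tagged over WT-tagged serum/LIF ESCs relative to the median of all genes), for lists with at least 5 genes compared, with order-statistic intervals over genes as lines and the numbers past 1.5-fold beside each name. Glycolysis at -0.63 and hypoxia at -0.60 lie lowest, and MHC class I at 0.78 and contractile genes at 0.44 lie highest.

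The comparison of KO-tagged with WT-tagged 48h-EpiLCs, made in the second library with its own tagged cells, gave 406 genes (5.35%) higher and 417 (5.5%) lower among 7586 compared. Of the 597 genes higher in ESCs 486 could be compared there and 166 (27.8% of the 597) were also higher, which is 40.9% of the 48h-EpiLC list. Of the 556 lower genes 484 could be compared and the overlap was 219, or 39.4% of the ESC list and 52.5% of the 48h-EpiLC list. Without chromosome 16 genes the overlap of lower genes was 175, or 36.5 and 49.7% of the lists. That of higher genes was then 165, or 27.9 and 40.9%. Of the genes past 1.5-fold in ESCs 3 higher and 6 lower ones were past it in the opposite direction. Both libraries mixed WT and KO cells of the same description, so that line and genotype cannot be told apart at that stage either.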

How the data were processed

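Cells were captured with the Chromium Single Cell 3′ v2 chemistry in 2 libraries, serum/LIF ESCs and 48h-EpiLCs. The files hold UMI counts per gene and barcode that the authors made with Cell Ranger 3.0.2 and deposited without normalization. Seurat 4 is also named in the submitters' processing notes. Whether counting used strand was not given in the sources used here. Of 32286 features 32235 (99.8%) matched GENCODE M21 (GRCm38), which gave positions and 3′ ends.

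The cells, tags and gene lists were chosen with earlier results of these data known. Counts were summed per class and scaled to CPM of that class's total. Genes with a mean of at least 10 CPM were compared by the log2 ratio, centred on their median. The edgeR (4.0.16) TMM shift was 0.11. Intervals are 95% exact (Poisson for levels, binomial for shares and, given the summed count, for ratios), and those of medians are from order statistics. They cover counting error, not replicate error. Calls are by size alone, at 1.5-fold. Genes named were Cnot8, the 12 highest and 12 lowest meeting the conditions given in the report, members of the naïve, core and formative lists, the other deadenylases and scaffold of Ccr4-Not, chosen for their role after their values were seen, and in other lists those among the 4 members farthest from the median. Dppa2, Dppa4 and other chromosome 16 genes were taken from these after their values were seen. Doublet scores came from 2 simulated doublets per cell on 30 components, and cells in the top 10% were left out only in an alternative. Cells with at least 3 markers of feeders, primitive endoderm or 2-cell-like cells were counted as other types. Alternatives changed the tags, filters, scaling, pseudocount (1 CPM) and depth. The ratio calculation was tested on simulated data. The work used Python 3.11.15, numpy 2.4.6, scipy 1.17.1, pandas 2.3.3, scikit-learn 1.9.0, matplotlib 3.10.9 and R 4.3.3.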

Additional observations from a re-analysis of the deposited data

Results flagged for a closer look

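The BMP target Id3, an inhibitor of bHLH factors, was past 2-fold in opposite directions at the 2 stages. In serum/LIF ESCs it had 34.0 CPM in WT-tagged and 74.4 CPM in KO-tagged cells, a log2 ratio of 1.01, and in 48h-EpiLCs 33.8 and 17.7 CPM, a ratio of -1.01. Mymx, which encodes a small membrane protein of myoblast fusion, had a ratio of -1.14 in ESCs (119 and 58.6 CPM) and 1.21 in 48h-EpiLCs (7.07 and 17.3 CPM). Without cells of other types the ESC ratio of Id3 was 0.85, and with a WT tag that did not use tdTomato it was 0.41, in both cases short of 2-fold. With 1 library per stage the difference between stages was not tested.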

How the results depend on the processing

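No paired analysis was possible because each group had 1 library. The counts of genes past 1.5-fold stayed within 1.5 times of 597 higher and 556 lower in 27 of 36 recalculations. Without centring 878 were higher and 370 lower, with a minimum of 20 CPM 329 and 349, with no minimum 4278 and 6995, with at least 2 tdTomato UMIs (33 WT-tagged cells) 1124 and 887, and with a WT tag that used no tdTomato, in cells of at least 20000 UMIs (286 against 490), 188 and 204. Of these 286 cells 73 lay below the chromosome 16 midpoint and 28 were of other types. The median of chromosome 16 stayed below 0 throughout, at -0.31 without centring, -0.38 with no minimum, -0.38 with at least 2 tdTomato UMIs, -0.25 with the tag that used no tdTomato and -0.47 in cells on their class's side of the midpoint. Chromosome X was at -0.012 without centring, and chromosomes 6 and 13 turned to 0.051 and 0.059, as did the proteasome list, to 0.023 (0.094 with no minimum). With the tag that used no tdTomato, Acta2 (-0.47), Tagln (-0.68), Thbs1 (-0.78), B2m (-0.13) and Otx2 (0.15) turned, and with at least 2 tdTomato UMIs Rhox9 (-0.94), Dnajb9 (0.070), Ankrd37 (0.96) and Ddit4 (0.14). The causes were not tested. Of 3600 recalculated ratios of single genes 3095 kept their direction and side of 1.5-fold without moving, but with the tag that used no tdTomato 97 did so, while 54 moved, 69 lost the 1.5-fold difference and 5 turned. The 97 include by construction the 12 higher and 12 lower named genes, which were chosen to stay past 2-fold with that tag. Leaving out chromosome 16 genes, near-copy genes and cells across the midpoint were chosen after seeing the data. The 435 WT-tagged cells limit the depth, since 10 CPM is 61.5 UMIs in their sum.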
